A study of Mus musculus with 20 samples.

Results

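Interferons are secreted proteins through which cells warn their neighbours of infection, and the genes described here are 45 that mouse cells switch on in response to them. They were chosen by name, as rows of the gene-level count files with at least 1 CPM (the standard depth-scaled unit of counts, taken here over the total of all genes in a library) in at least 5 libraries. All 45 of the 45 listed genes met this rule, of 23457 genes in the files, and all 45 were among the 16099 genes tested. The ovaries came from females of the Ames dwarf strain, of 2 genotypes and 2 ages, and their polyadenylated RNA was sequenced with 5 libraries in each of 4 groups. The groups were df/df (dwarf) mice at 22 months, df/df mice at 6 months, N/df (normal) mice at 22 months and N/df mice at 6 months. Ames dwarf mice carry the df allele in both copies, lack growth hormone, prolactin and thyrotropin, and live long. The normal mice are heterozygous carriers, so that every animal had at least 1 df allele. The series addresses reproductive ageing in these mice.

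Type I interferons (alpha, beta and others) signal through the receptor chains IFNAR1 and IFNAR2 and the kinases JAK1 and TYK2, and lead to a complex with STAT2 and IRF9 that binds the interferon-stimulated response element (ISRE) of its target genes. Type II interferon (gamma), made by T and NK cells, signals through IFNGR1 and IFNGR2 and the kinases JAK1 and JAK2 to the gamma-activated site (GAS) of its target genes, and through the induced factor IRF1. The targets of both overlap, and they include sensors of foreign nucleic acid, proteins that block viral replication, GTPases that attack the vacuoles of intracellular pathogens and the machinery that presents peptides on MHC class I.

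Promoters of 7 genes are shown. Ifit3, Ifit1 and Samd9l are the genes called with age, and Isg15 (antiviral) and Irgm2, Igtp and Gbp2 (GTPases) are set beside them as other genes of the families described, chosen after their motif matches were known. Each run is the 160 bases before the annotated gene start in RefSeq, build GRCm38.p6, whose chromosome coordinates are those of mm10. Capitals mark matches to the ISRE core GAAANNGAA, to its reverse complement TTCNNTTTC or to the GAS form TTCNNNGAA, with both strands searched and overlapping matches joined.
Ifit3, chr19:34583369-34583528, plus strand: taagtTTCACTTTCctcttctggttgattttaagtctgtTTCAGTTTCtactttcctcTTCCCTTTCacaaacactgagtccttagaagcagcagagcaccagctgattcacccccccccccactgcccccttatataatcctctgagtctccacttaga
Ifit1, chr19:34640729-34640888, plus strand: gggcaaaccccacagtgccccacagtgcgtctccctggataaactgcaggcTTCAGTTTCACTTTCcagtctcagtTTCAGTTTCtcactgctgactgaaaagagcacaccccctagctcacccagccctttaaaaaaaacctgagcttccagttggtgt
Samd9l, chr6:3399572-3399731, minus strand: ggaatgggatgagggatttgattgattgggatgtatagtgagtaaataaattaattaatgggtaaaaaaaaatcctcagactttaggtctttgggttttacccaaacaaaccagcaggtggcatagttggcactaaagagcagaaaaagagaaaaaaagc
Isg15, chr4:156200819-156200978, minus strand: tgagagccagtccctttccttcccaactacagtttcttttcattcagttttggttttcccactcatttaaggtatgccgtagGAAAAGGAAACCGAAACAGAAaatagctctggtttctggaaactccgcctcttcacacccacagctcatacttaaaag
Irgm2, chr11:58214817-58214976, plus strand: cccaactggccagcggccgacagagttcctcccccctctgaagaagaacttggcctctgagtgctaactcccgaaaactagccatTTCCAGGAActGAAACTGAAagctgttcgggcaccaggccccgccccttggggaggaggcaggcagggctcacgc
Igtp, chr11:58199396-58199555, plus strand: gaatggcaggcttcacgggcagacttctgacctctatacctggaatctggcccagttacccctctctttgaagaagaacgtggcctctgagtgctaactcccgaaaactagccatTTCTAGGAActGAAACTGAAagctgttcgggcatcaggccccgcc
Gbp2, chr3:142620503-142620662, plus strand: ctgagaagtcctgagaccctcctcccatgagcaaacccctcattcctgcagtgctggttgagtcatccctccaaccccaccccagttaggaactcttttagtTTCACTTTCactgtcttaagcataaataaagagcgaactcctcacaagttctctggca
The promoters of Ifit3, Ifit1 and Isg15 each hold 3 ISRE core positions, at -155 to -102, -109 to -84 and -78 to -66 bases from the gene start. Those of Irgm2 and Igtp each hold a GAS form followed within a few bases by an ISRE core, at -75 and -64 in Irgm2 and at -45 and -34 in Igtp. Irgm2 and Igtp are neighbours on chromosome 11 and share 107 of 130 aligned bases of these windows (82.3%), with a longest identical run of 38 bases, so their matches are not independent. Gbp2 holds 1 ISRE core at -58. Samd9l holds no match to either motif in this window or in the 250 bases before its start.
RefSeq had a promoter entry for 34 of the 45 genes. In the 250 bases before the start, the ISRE core was present on either strand in 16 of 34 (47.1%), against 2211 of 27025 genes (8.18%), and at 2 or more positions in 8 of 34 (23.5%), against 150 genes (0.555%). The GAS form was present in 8 of 34 (23.5%), against 2197 of 27025 genes (8.13%). These are matches of letters, which do not show that a factor was bound.

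Totals over genes ranged from 1365640 to 36068284 counts per library, with group medians of 10120399 and 16846616 in dwarf mice at 22 and 6 months and 14479403 and 13733504 in normal mice at 22 and 6 months. The shallowest library, normal 6-month replicate 3, gave 0.732 CPM for a single count, and Ifit2 and Ifi44 had no count there. Of its group, normal 6-month replicate 2 was at odds with its tissue label. Its summed granulosa cell markers were 79.4 CPM, against 2419 to 4144 in the other 4 libraries, its luteal and steroidogenic markers 133 CPM, against 9274 to 12079, and its oviduct secretory markers 5215 CPM, against 33.3 to 99.0. Normal 22-month replicate 3 held the most B and plasma cell markers, 1285 CPM in sum, against 57.4 to 186 in the other 4. These 3 normal libraries are called the libraries in doubt below. Each library was taken as 1 mouse, and in such bulk RNA more cells of a type and more RNA per cell cannot be told apart. Dwarf 22-month replicates 1 and 4 were alike, with summed oocyte markers of 96.7 and 99.2 CPM, against 60.4 to 82.4 in the rest of their group. Whether replicates 1 and 4 came from separate mice was not tested, and their sum is fitted as an alternative below.

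Relative to exon length, B2m and Bst2 stood highest of the interferon-induced genes over all libraries. The mean over 20 libraries per kilobase of exon was 616 CPM for B2m, the light chain of MHC class I, 291 for Bst2, a protein that tethers budding virus to the cell, and 103 for Lgals3bp, a secreted glycoprotein. By group the B2m mean was 776 ± 516, 442 ± 358, 939 ± 748 and 308 ± 102 CPM per kilobase (SD, n = 5) in dwarf mice at 22 and 6 months and normal mice at 22 and 6 months. Bst2 in the same order had 245 ± 59.3, 294 ± 87.0, 291 ± 40.4 and 335 ± 51.9, so that the B2m mean was above that of Bst2 in 3 groups and below it in normal mice at 6 months, and only in dwarf mice at 22 months did the means differ by more than the SD of B2m. Ifi27l2a followed at 44.2, the immunoproteasome subunit gene Psmb8 at 35.2 and the GTPase gene Gbp2 at 32.5 CPM per kilobase. The median of the 45 genes was 7.10 CPM per kilobase, and the lowest were Ifi44 at 0.716 and Mx1, a GTPase that blocks virus replication, at 0.911. The genes lie on 15 chromosomes. Among them Parp9 and Dtx3l overlap in their exons on opposite strands, and the strand setting of the counting is not given in the sources used here, so reads of that pair cannot be told apart there.

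**Figure D1:**
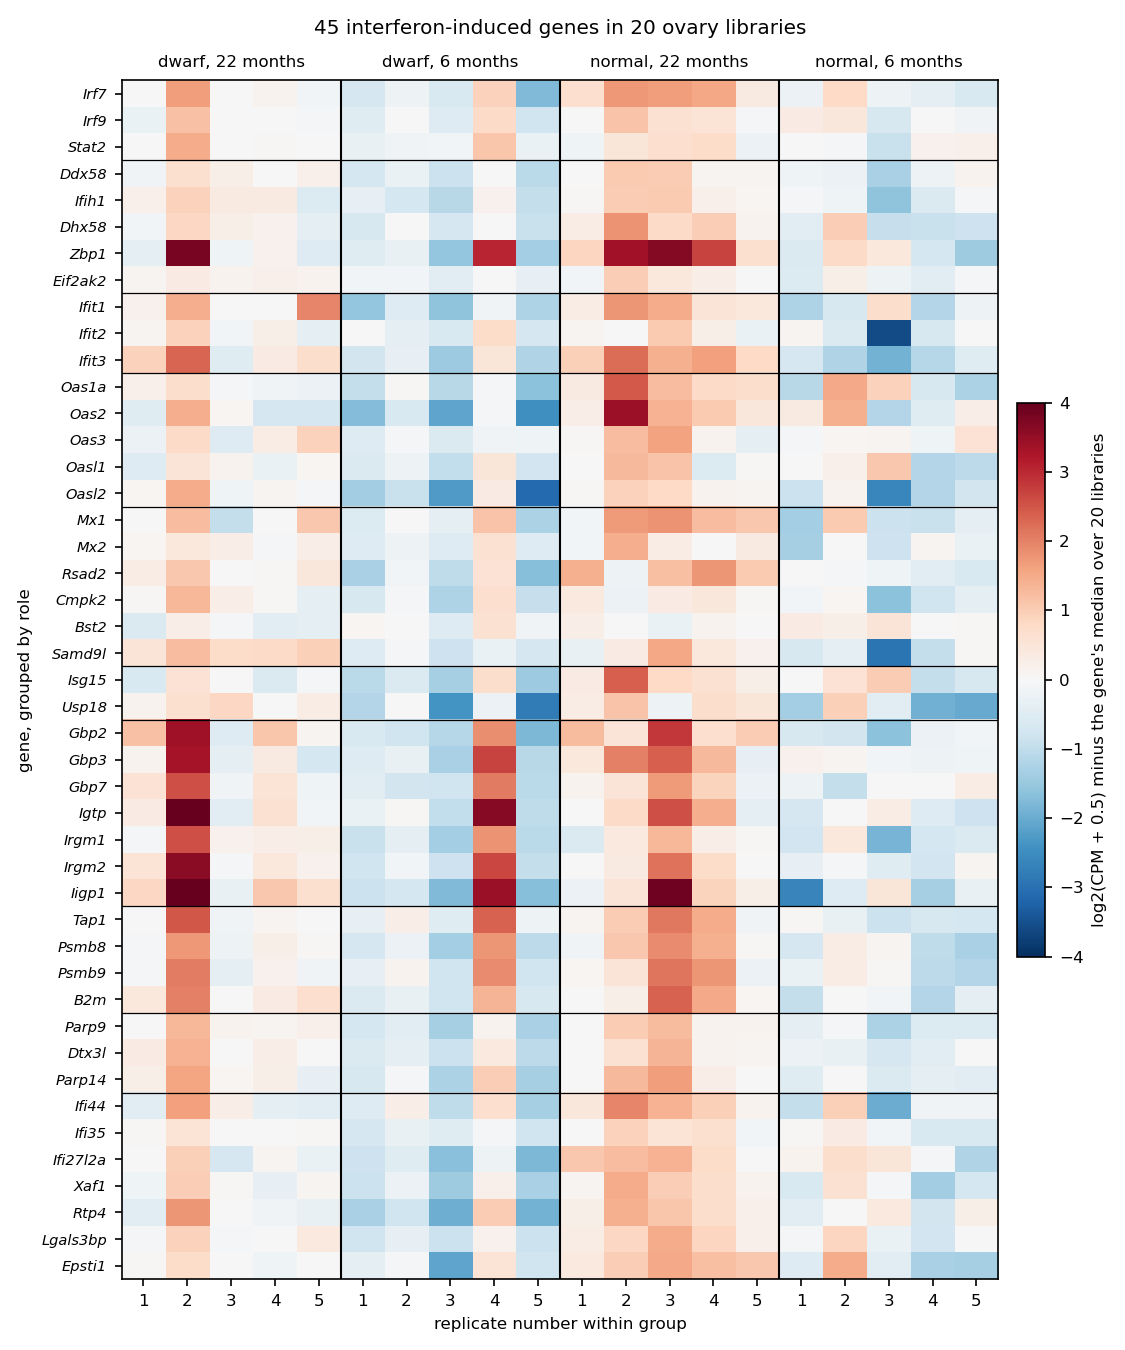
Level of each of the 45 genes (rows, grouped by role) in each of the 20 libraries (columns, by group and replicate), as log2(CPM + 0.5) minus the gene's median over all libraries; values beyond 4 or -4 are drawn at the end of the colour scale. Dwarf 22-month replicate 2, dwarf 6-month replicate 4 and normal 22-month replicate 3 are red over the GBP and IRG GTPases (Gbp2 to Iigp1), and most of the other 6-month libraries are blue over most rows.

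Most interferon-induced genes had higher mean levels in ovaries at 22 months than at 6 months in both genotypes, but few passed the test. In dwarf mice 44 of 45 log2 fold changes were above 0 (8068 of 16099 over all genes tested), with a median of 0.70, beside 0.00 over all genes tested. In normal mice 44 of 45 were above 0 (7818 of 16099 over all genes tested), with a median of 1.12, beside -0.02 over all genes tested. Many of the 45 were highest in the same libraries, so these are not counts of independent genes. In dwarf mice 3 genes passed, Ifit1, Ifit3 and Samd9l, all higher at 22 months, and 2 passed in normal mice, Ifit3 and Samd9l, also higher. No gene of the 45 was called lower in either genotype by edgeR, where 8.27% of all genes (1332) were in dwarf mice and 4.14% (667) in normal mice. With limma voom, used here with a quality weight for each library, 1 was called lower, Bst2 in dwarf mice, beside 3956 of all genes.

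These calls are edgeR quasi-likelihood tests with Benjamini-Hochberg adjusted p under 0.05 over all 16099 genes. The share of all genes called higher was 2.92% (470) in dwarf mice and 2.60% (419) in normal mice. At an unadjusted p under 0.05, 13 of the 45 passed in dwarf mice and 25 in normal mice. Groups did not overlap, with every 22-month library above every 6-month library, for 4 of 45 genes in dwarf mice (Ifit1, Samd9l, Ifi35 and Eif2ak2), against 9.85% of all genes, and for 6 of 45 in normal mice (Ifit3, Parp9, Ifih1, B2m, Gbp2 and Parp14), against 1.39%. The 4 of 45 in dwarf mice are a share near that background.
Single libraries weighed on these counts. In dwarf mice edgeR called none of the 45 (5 at an unadjusted p under 0.05) without dwarf 22-month replicate 2, where the median fold change was 0.24, and 12 without dwarf 6-month replicate 4, where it was 1.23 and 349 of all genes were called higher. No gene was called either without dwarf 22-month replicate 5 or without dwarf 6-month replicate 1, 3 or 5 alone, and without both replicate 2 at 22 months and replicate 4 at 6 months the count was 0 (20 at an unadjusted p under 0.05) and the median 0.78. In normal mice 21 of the 45 were called without normal 6-month replicate 2, when 2749 of all genes were called higher, and 14 without the 3 libraries in doubt, when 2741 were. Leaving out the 2 dwarf libraries together gave 12 calls in normal mice, when 402 of all genes were called higher. These libraries are not in the normal comparison, but the gene filter, scaling, estimate of spread and adjustment were rerun without them. Which of these steps changed the count was not tested. Leaving out normal 22-month replicate 1 gave 4 calls, and leaving out normal 22-month replicate 3 or 4 or normal 6-month replicate 1 or 4 gave 1 call, Ifit3.

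**Figure D2:**
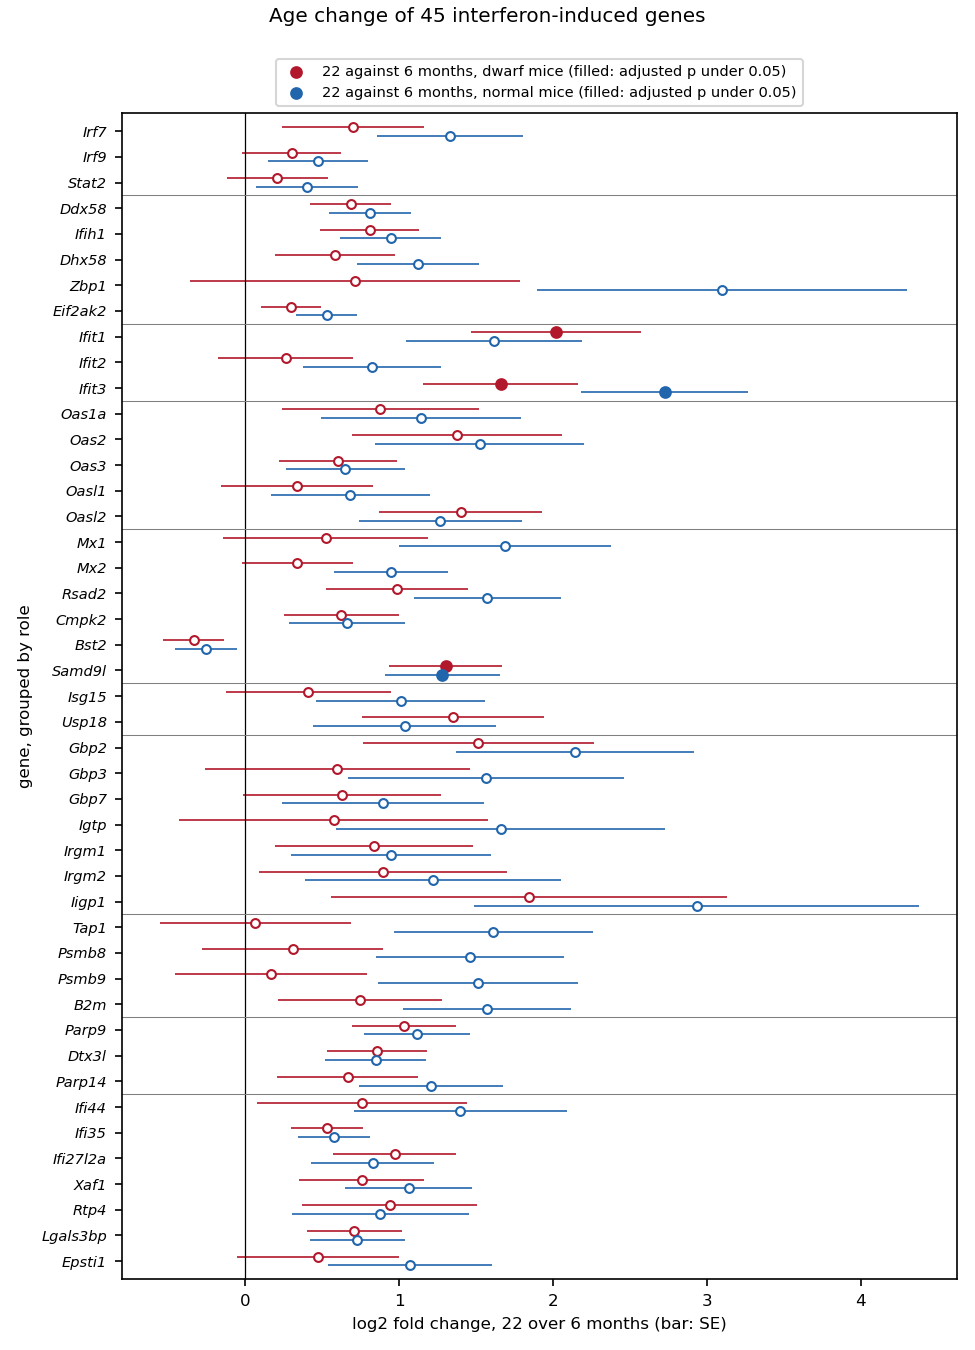
The log2 fold change of each of the 45 genes at 22 over 6 months, in dwarf mice (red) and normal mice (blue), with the SE as a bar and filled points for an edgeR adjusted p under 0.05. All points lie above 0 except those of Bst2, and filled points are Ifit1, Ifit3 and Samd9l in dwarf mice and Ifit3 and Samd9l in normal mice.

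The IFIT proteins, which bind the ends of viral RNA and block its translation, held the highest age changes that passed. Ifit3 in dwarf ovaries stood at 7.99, 22.2, 2.75, 5.20 and 6.85 CPM at 22 months, against 2.24, 3.09, 1.14, 5.76 and 1.47 CPM at 6 months (replicates 1 to 5 in each group). Ifit3 in normal ovaries stood at 8.29, 20.9, 11.7, 13.5 and 7.39 CPM at 22 months, against 2.31, 1.46, 0.732, 1.56 and 2.71 CPM at 6 months. The normal groups did not overlap, the highest dwarf value was that of 22-month replicate 2, and in dwarf mice the lowest 22-month library lay below 2 of the 6-month ones. The log2 fold change of Ifit3 was 1.66 ± 0.51 (SE) in dwarf mice (edgeR adjusted p = 0.0402) and 2.73 ± 0.54 in normal mice (adjusted p = 0.0100). Over 22 alternative settings its adjusted p ran from 0.00875 to 0.195 in dwarf mice and from 3.65e-05 to 0.108 in normal mice, and it passed in 12 and 21 of them. Ifit1 in dwarf ovaries stood at 4.93, 12.5, 4.24, 4.39 and 18.3 CPM at 22 months, against 1.15, 2.85, 1.08, 3.87 and 1.55 CPM at 6 months, and all 22-month libraries lay above all 6-month ones. Ifit1 in normal ovaries stood at 5.38, 15.9, 13.1, 6.36 and 6.01 CPM at 22 months, against 1.54, 2.62, 7.32, 1.65 and 3.69 CPM at 6 months, and the groups overlapped through replicate 3 at 6 months, the shallow library. Ifit1 had a log2 fold change of 2.02 ± 0.55 in dwarf mice (edgeR adjusted p = 0.0242) and 1.62 ± 0.57 in normal mice (adjusted p = 0.0942, not called). Ifit2, the third of the family, had 0.26 and 0.83 and passed in neither genotype.

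Among Mx and the other antiviral effectors, Samd9l, an inhibitor of protein synthesis that restricts viruses, was called in both genotypes. Samd9l in dwarf ovaries had 12.9, 21.3, 15.2, 15.4 and 17.6 CPM at 22 months, against 6.01, 8.43, 4.78, 7.31 and 5.32 CPM at 6 months, with no overlap. Samd9l in normal ovaries had 7.15, 11.2, 26.8, 12.0 and 10.1 CPM at 22 months, against 5.52, 6.63, 0.732, 4.32 and 9.23 CPM at 6 months. In normal mice the groups overlapped by 1 library on each side, and the lowest value is a single count. The log2 fold change of Samd9l was 1.30 ± 0.37 in dwarf mice (edgeR adjusted p = 0.0287) and 1.28 ± 0.37 in normal mice (adjusted p = 0.0448). Over 22 alternative settings Samd9l passed in 15 in dwarf mice and in 9 in normal mice, where the call did not hold without normal 6-month replicate 1, 3 or 4 or normal 22-month replicate 2, 3 or 4, among others. Bst2 alone had fold changes below 0 in both genotypes, and neither passed. Its levels in dwarf ovaries were 147, 259, 205, 161 and 167 CPM at 22 months, against 227, 216, 152, 333 and 198 CPM at 6 months, with a log2 fold change of -0.34 ± 0.20. In normal ovaries Bst2 had 264, 217, 181, 240.1 and 213 CPM at 22 months, against 276, 253, 314, 217 and 224 CPM at 6 months, with -0.25 ± 0.20. The log2 fold changes of Mx1, Mx2, Rsad2 (viperin, a radical enzyme that blocks viral replication) and Cmpk2 ran from 0.34 to 0.99 in dwarf mice and from 0.66 to 1.69 in normal mice, and none passed.

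**Figure D3:**
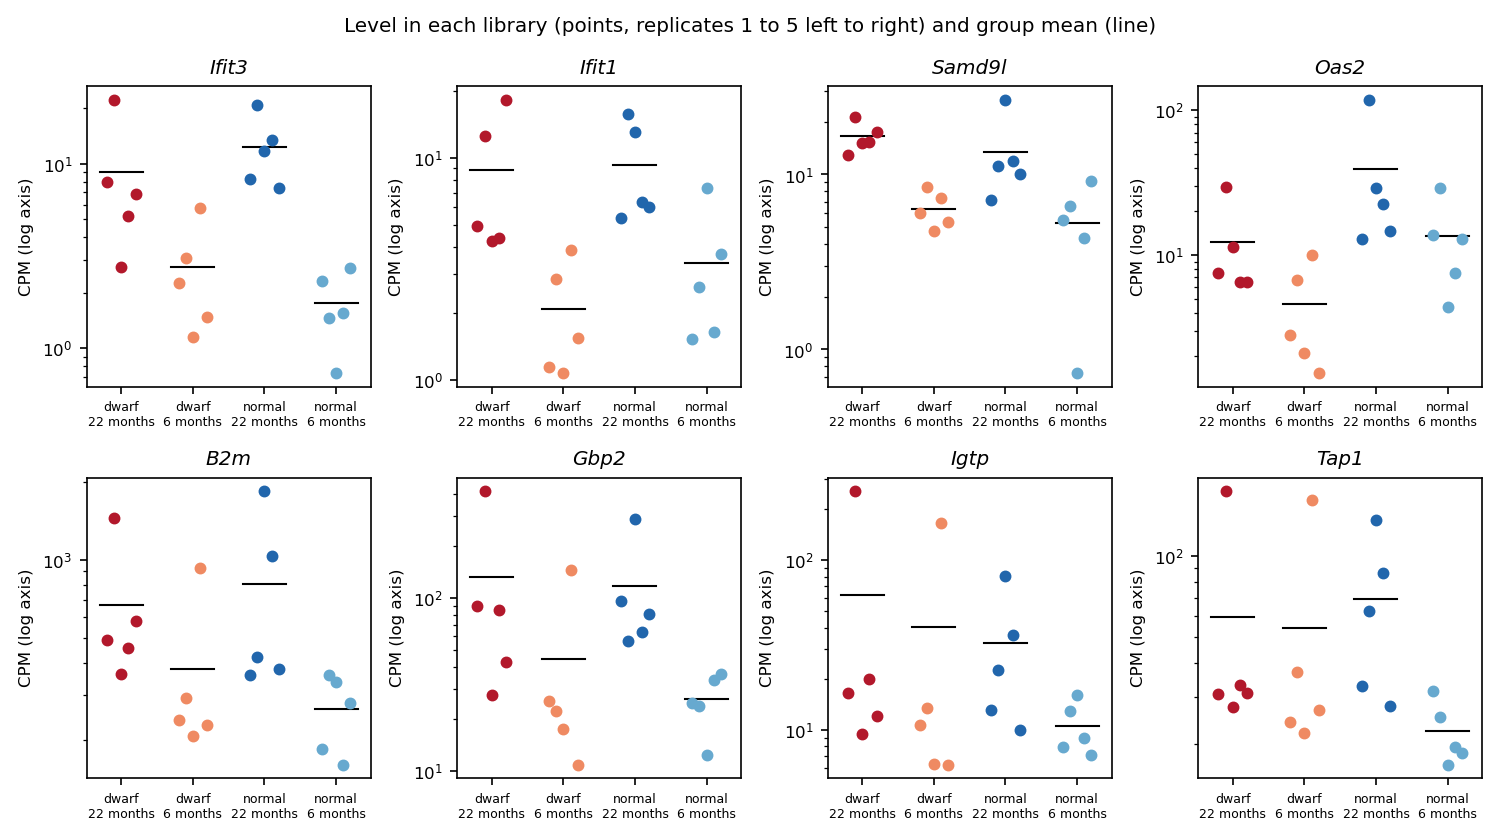
CPM on a log axis of 8 of the genes in each library (points, replicates 1 to 5 from left to right in each group), with the group mean as a line. Samd9l does not overlap between the ages in dwarf mice, and Ifit3 has 22.2 CPM in dwarf 22-month replicate 2 with the next library at 7.99, while Igtp reaches 255 CPM in dwarf 22-month replicate 2 and 166 CPM in dwarf 6-month replicate 4.

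The 3 transcription factors of the list did not pass with age in either genotype. Irf7, which drives type I interferon genes in infected cells, stood at 18.6, 61.1, 18.7, 20.8 and 17.4 CPM at 22 months, against 11.6, 16.0, 12.2, 35.9 and 5.13 CPM at 6 months in dwarf ovaries. In normal ovaries Irf7 stood at 30.3, 63.0, 60.2, 55.3 and 24.3 CPM at 22 months, against 15.8, 33.0, 16.1, 14.4 and 12.0 CPM at 6 months. The normal groups overlapped only through the 6-month library with oviduct markers, replicate 2, and the fold changes of Irf7 were 0.70 ± 0.46 in dwarf mice and 1.33 ± 0.47 in normal mice (edgeR adjusted p = 0.329 and 0.0974). Stat2, a subunit of the ISRE-binding complex, had 64.9, 179, 62.5, 65.1 and 63.5 CPM at 22 months, against 51.9, 58.2, 58.8, 137 and 52.4 CPM at 6 months in dwarf ovaries. Stat2 in normal ovaries had 55.9, 88.5, 101, 107 and 53.6 CPM at 22 months, against 63.6, 61.2, 34.4, 71.5 and 72.9 CPM at 6 months. In the dwarf groups 1 library of each age was more than 2 times the next, and the other 8 lay between 51.9 and 65.1 CPM. The log2 fold change of Stat2 was 0.21 ± 0.33 in dwarf mice and 0.40 ± 0.33 in normal mice, and without dwarf 22-month replicate 2 the dwarf value was -0.24.

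The sensors of foreign RNA and DNA and the RNA-activated kinase PKR all had fold changes above 0 in both genotypes, and 0 of 5 passed. Ddx58, which encodes the RNA sensor RIG-I, had 28.4, 49.6, 37.6, 31.4 and 36.5 CPM at 22 months, against 19.0, 26.2, 17.2, 31.8 and 14.7 CPM at 6 months in dwarf ovaries. Ddx58 in normal ovaries had 31.8, 65.2, 63.8, 34.1 and 34.1 CPM at 22 months, against 27.7, 26.9, 12.4, 27.6 and 35.0 CPM at 6 months. A single 6-month library lay inside the 22-month range in each genotype, replicate 4 in dwarf and replicate 5 in normal mice, with log2 fold changes of 0.68 ± 0.26 in dwarf mice and 0.81 ± 0.27 in normal mice (edgeR adjusted p = 0.0989 and 0.0748). Eif2ak2, the gene of PKR, which stops translation, had 4 dwarf 22-month libraries within 34.8 to 36.6 CPM. Its dwarf levels were 34.8, 39.9, 35.0, 36.6 and 35.4 CPM at 22 months, against 29.8, 29.3, 23.9, 31.7 and 25.5 CPM at 6 months, with no overlap. Its normal levels were 29.3, 64.1, 42.9, 38.6 and 32.0 CPM at 22 months, against 21.7, 37.4, 27.8, 23.7 and 30.5 CPM at 6 months. The log2 fold changes were 0.30 ± 0.19 and 0.53 ± 0.20 (edgeR adjusted p = 0.323 in dwarf mice and 0.111 in normal mice). Zbp1, a sensor of Z-form nucleic acid that can trigger cell death and was picked after its values were seen, had 49.8 CPM in dwarf 22-month replicate 2 and 2.04 to 3.58 in the other 4, and 6.17, 37.2, 46.3, 23.3 and 5.18 CPM in the normal 22-month libraries.

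The oligoadenylate synthetases make a short nucleotide chain that activates RNase L, and 0 of 5 in this family passed with age. Oasl2 in dwarf ovaries had 78.6, 207, 65.7, 80.1 and 71.5 CPM at 22 months, against 28.0, 39.5, 15.1, 92.8 and 8.26 CPM at 6 months. Oasl2 in normal ovaries had 77.5, 142, 130.1, 82.7 and 80.9 CPM at 22 months, against 40.7, 81.6, 11.7, 32.5 and 44.6 CPM at 6 months. In both genotypes a single 6-month library, replicate 4 in dwarf and replicate 2 in normal mice, lay inside the range of its 22-month group. Oasl2 had a log2 fold change of 1.40 ± 0.53 in dwarf mice (edgeR adjusted p = 0.0933) and 1.27 ± 0.53 in normal mice (adjusted p = 0.158). Isg15, a ubiquitin-like protein joined to newly made proteins, and Usp18, the protease that removes it and damps receptor signalling, did not pass either. Isg15 in dwarf ovaries had 4.66, 11.2, 7.21, 4.75 and 6.85 CPM at 22 months, against 3.18, 4.69, 2.63, 12.2 and 2.38 CPM at 6 months. Isg15 in normal ovaries had 9.42, 40.4, 13.1, 11.4 and 8.63 CPM at 22 months, against 7.45, 11.1, 15.4, 3.57 and 4.56 CPM at 6 months, where replicate 2 at 22 months stood at more than 3 times the next 22-month library. Usp18 in dwarf ovaries had 17.6, 24.9, 28.4, 15.7 and 19.6 CPM at 22 months, against 6.73, 16.0, 2.63, 13.4 and 1.83 CPM at 6 months. Usp18 in normal ovaries had 19.4, 35.6, 13.8, 25.8 and 22.5 CPM at 22 months, against 5.91, 30.9, 11.7, 3.79 and 3.51 CPM at 6 months, and again replicate 2 was the 6-month library inside the 22-month range. The log2 fold changes in dwarf and normal mice were 0.41 ± 0.54 and 1.01 ± 0.55 for Isg15 and 1.35 ± 0.59 and 1.04 ± 0.59 for Usp18.

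Of the 7 GBP and IRG GTPases, which are recruited to vacuoles that hold bacteria or parasites, all had fold changes above 0 in both genotypes and none passed. Gbp2 in dwarf ovaries had 90.0, 415, 27.7, 85.4 and 42.8 CPM at 22 months, against 25.5, 22.4, 17.5, 145 and 10.9 CPM at 6 months. Gbp2 in normal ovaries had 96.5, 56.4, 286, 63.2 and 81.2 CPM at 22 months, against 24.9, 23.7, 12.4, 33.7 and 36.4 CPM at 6 months. The normal groups did not overlap, the dwarf groups did, and each group but the normal 6-month one held a library far above the rest. Gbp2 had a log2 fold change of 1.51 ± 0.75 in dwarf mice (edgeR adjusted p = 0.196) and 2.15 ± 0.77 in normal mice (adjusted p = 0.102).

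B2m and the genes of peptide supply to MHC class I, the transporter subunit Tap1 and the immunoproteasome subunits Psmb8 and Psmb9, were not called with age in either genotype. B2m in dwarf ovaries had 487, 1446, 362, 454 and 581 CPM at 22 months, against 241, 291, 208, 925 and 229 CPM at 6 months. B2m in normal ovaries had 359, 422, 1839.7, 1029 and 378 CPM at 22 months, against 186, 357, 337, 161 and 279 CPM at 6 months. In dwarf mice only replicate 4 at 6 months reached the range of the 22-month group, and in normal mice every 22-month library lay above the 6-month ones, though the nearest pair stood at 359 and 357 CPM. B2m had a log2 fold change of 0.74 ± 0.54 in dwarf mice (edgeR adjusted p = 0.369) and 1.57 ± 0.55 in normal mice (adjusted p = 0.0911). The other 3 had fold changes of 0.06 to 0.31 in dwarf mice and 1.46 to 1.61 in normal mice. Single libraries weighed on these values. Tap1 reached 173 CPM in dwarf 22-month replicate 2 (group median 30.9) and 161 CPM in dwarf 6-month replicate 4 (26.8). It reached 136 CPM in normal 22-month replicate 3 (62.2), and Psmb8 and Psmb9 were highest of their groups in the same libraries.

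Parp9 and Dtx3l encode partners in an ADP-ribosyl and ubiquitin ligase complex that strengthens interferon responses, and Parp14 a related transferase. Parp9 in dwarf ovaries had 22.2, 55.2, 23.9, 23.5 and 25.6 CPM at 22 months, against 13.2, 16.2, 8.48, 24.1 and 8.54 CPM at 6 months. Parp9 in normal ovaries had 21.6, 44.3, 52.9, 24.1 and 24.0 CPM at 22 months, against 16.6, 21.1, 8.79, 14.7 and 15.0 CPM at 6 months. It missed the threshold narrowly in both genotypes, with log2 fold changes of 1.03 ± 0.34 in dwarf mice and 1.12 ± 0.34 in normal mice (edgeR adjusted p = 0.0558 and 0.0555). Parp14 in dwarf ovaries had 31.2, 81.2, 28.4, 31.4 and 21.1 CPM at 22 months, against 17.0, 25.8, 10.8, 53.4 and 10.2 CPM at 6 months. Parp14 in normal ovaries had 26.9, 66.6, 85.5, 32.0 and 27.0 CPM at 22 months, against 19.0, 26.4, 17.6, 20.3 and 19.5 CPM at 6 months, with no overlap. Its fold changes were 0.67 ± 0.46 and 1.21 ± 0.47.

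None of the 7 remaining interferon-induced genes was called. Lgals3bp in dwarf ovaries had 180.2, 359, 184, 184 and 249 CPM at 22 months, against 107, 149, 104, 212 and 103 CPM at 6 months. Lgals3bp in normal ovaries had 232, 333, 523, 341 and 216 CPM at 22 months, against 181, 342, 155, 111 and 192 CPM at 6 months. Its fold changes were 0.71 ± 0.31 in dwarf mice and 0.73 ± 0.31 in normal mice. Ifi27l2a, a small membrane protein gene, had 17.2, 34.1, 10.8, 18.5 and 14.4 CPM at 22 months, against 9.54, 12.3, 5.12, 14.9 and 4.66 CPM at 6 months in dwarf ovaries. Ifi27l2a in normal ovaries had 37.0, 41.6, 46.6, 29.3 and 17.4 CPM at 22 months, against 19.0, 28.8, 24.2, 16.9 and 7.26 CPM at 6 months. Its log2 fold changes were 0.97 ± 0.40 and 0.83 ± 0.40, and in both genotypes some 6-month libraries lay within the 22-month range. Xaf1, a promoter of cell death that binds XIAP, had 15.5, 34.7, 18.1, 13.9 and 18.7 CPM at 22 months, against 9.47, 14.8, 6.13, 20.0 and 6.85 CPM at 6 months in dwarf ovaries. Xaf1 in normal ovaries had 18.8, 49.6, 35.4, 28.7 and 19.1 CPM at 22 months, against 11.3, 26.9, 16.8, 6.38 and 10.6 CPM at 6 months. Its fold changes were 0.76 ± 0.41 and 1.06 ± 0.41, with 1 or more 6-month libraries in the 22-month range in each genotype.

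Markers of leukocytes were also called higher with age. Of 6 leukocyte markers 1 was called higher in dwarf mice and 6 in normal mice, with median log2 fold changes of 0.34 and 2.81. Their summed level was 97.2 to 231 CPM at 22 months and 76.4 to 161 at 6 months in dwarf mice. In normal mice it was 119 to 1229 CPM at 22 months and 60.1 to 106 at 6 months. In normal mice 4 of 11 macrophage, 5 of 10 T and NK cell and 6 of 9 B and plasma cell markers were also called higher, against 0 of 11, 0 of 10 and 0 of 9 in dwarf mice. Other cell types moved as well. Oviduct secretory markers summed to 1646 to 3051 CPM at 22 months, against 31.4 to 1176 CPM at 6 months in dwarf mice, with no overlap. In normal mice they summed to 1721 to 3322 CPM at 22 months, against 33.3 to 5215 CPM at 6 months, with 90.8 as the 6-month median, although 0 of 4 were called in either genotype. Adipocyte markers were called higher for 5 of 6 in dwarf mice (median log2 fold change 2.87) and 0 of 6 in normal mice. Oocyte markers were called lower for 9 of 10 in dwarf mice and 10 of 10 in normal mice. No leukocyte marker was at 0 in all libraries of a group. The part of all these cells in the age changes was not tested.

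Single ovaries stood far above their groups, and it was the GBP and IRG GTPases and the MHC class I genes that stood highest in them. In dwarf 22-month replicate 2, 42 of the 45 genes were at their highest level of the group, with a median ratio of 2.47 to the median of the other 4 libraries. In dwarf 6-month replicate 4, 40 of 45 were, with a median ratio of 2.91. Over all 16099 genes these libraries were the highest of their group for 3361 and 3178 genes, with median ratios of 0.978 and 1.02. A gene more than 2 times the next highest library was found for 24 and 19 of the 45, against 312 (1.94%) and 181 (1.12%) of all genes. These are descriptions of 2 libraries, with no test.

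**Figure D4:**
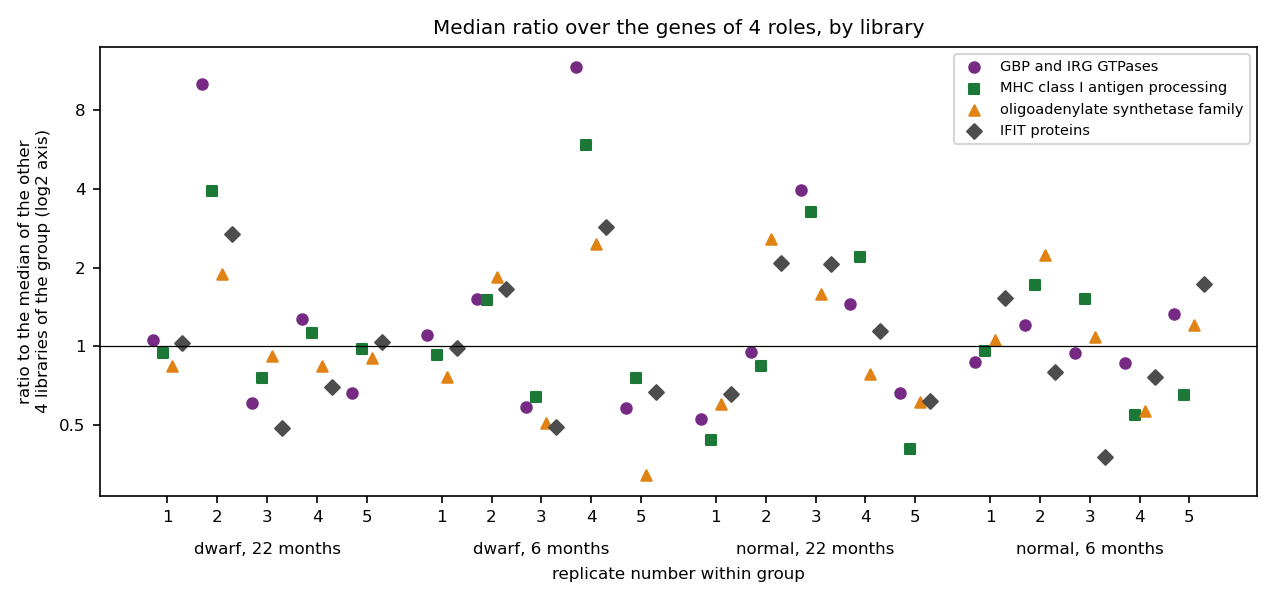
Median over the genes of a role of the ratio of a library to the median of the other 4 libraries of its group (log2 axis), for 4 roles in all 20 libraries. The GBP and IRG GTPases stand at 10.1 in dwarf 22-month replicate 2, 11.7 in dwarf 6-month replicate 4 and 3.96 in normal 22-month replicate 3, above the other 3 roles shown, while the oligoadenylate synthetases are the highest of the 4 in normal 22-month replicate 2 and normal 6-month replicate 2.

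The roles ranked differently between these libraries. All 7 GTPases were highest in dwarf 22-month replicate 2 and dwarf 6-month replicate 4, with median ratios of 10.1 and 11.7. All 4 MHC class I genes were as well, with 3.93 and 5.89, whereas the oligoadenylate synthetase family had 1.88 and 2.47 and the IFIT proteins 2.69 and 2.86. Igtp and Iigp1, picked here after their values were seen, encode IRG GTPases that act on parasite vacuoles. Igtp had 255 CPM in dwarf 22-month replicate 2, against 9.52 to 19.9 in the other 4, and 166 CPM in dwarf 6-month replicate 4, against 6.24 to 13.5. Iigp1 had 218 CPM, against 4.02 to 11.2, and 59.8 CPM, against 1.14 to 2.91. None of the other 8 dwarf libraries held more than 19.9 CPM of Igtp or 11.2 CPM of Iigp1.
In normal 22-month replicate 3 the 7 GTPases and 4 MHC class I genes were again all highest, with median ratios of 3.96 and 3.26. Iigp1 stood there at 81.6 CPM, against 4.19 to 9.83 in the other 4. Normal 22-month replicate 2 had another order, with 4 of 5 oligoadenylate synthetases highest at a median ratio of 2.58, and 0 of 7 GTPases highest at 0.948. Oas2 reached 118 CPM there, against 12.9 to 28.8. Normal 6-month replicate 2, the library with oviduct markers, resembled it in that the oligoadenylate synthetases stood at 2.23 and the GTPases at 1.20, and Isg15 and Usp18 had a median ratio of 4.12. That library was also more than 2 times the next highest for 1935 (12.0%) of all genes.
Leukocyte markers were not the highest of the group in every such library. Their sum was 231 CPM in dwarf 22-month replicate 2, against 97.2 to 156 in the other 4, but 131 CPM in dwarf 6-month replicate 4, within the 76.4 to 161 of the others. The T and NK cell markers, the cells that make interferon gamma, summed to 51.3 CPM, against 28.9 to 43.2, and to 29.9 CPM, against 17.9 to 30.5. In normal 22-month replicate 3 they summed to 215 CPM, against 17.6 to 86.0. None of the 12 listed T and NK cell markers was at 0 in all libraries of a group. Dwarf 22-month replicate 2 was also apart in other cell types, with luteal and steroidogenic markers at 1505 CPM, against 3814 to 4151, granulosa cell markers at 911 CPM, against 1395 to 1769, B and plasma cell markers at 145 CPM, against 48.7 to 63.5, macrophage markers at 857 CPM, against 518 to 725 and adipocyte markers at 335 CPM, against 111 to 202 (each against the range of the other 4). Dwarf 6-month replicate 4 lay within its group for the luteal, granulosa, B and plasma cell and adipocyte lists but above it for macrophage markers, at 611 CPM, against 411 to 596, and for oocyte markers, at 618 CPM, against 421 to 493. Normal 22-month replicate 2, the one high in oligoadenylate synthetases, was the lowest of its group for leukocyte markers at 119 CPM, against 203 to 1229, for luteal and steroidogenic markers at 2422 CPM, against 3899 to 9796 and for oocyte markers at 7.30 CPM, against 8.37 to 50.4. The part of these cells in the values of single libraries was not tested.

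Interferon transcripts were at most 1.06 CPM in any library, apart from Ifne. Of 15 interferon genes listed, 7 had no count in any of the 20 libraries and 1, Ifne, could be tested. Ifnb1, the gene of interferon beta, had 3 counts over all libraries, in 2 of the dwarf 6-month ones. Ifng, the gene of interferon gamma, had no count in dwarf 22-month replicate 2 or dwarf 6-month replicate 4, where 3 counts would be 0.296 and 0.211 CPM, a limit that covers counting error only. It had 1.06 CPM (18 counts) in normal 22-month replicate 3 and 0.964 CPM in replicate 4 of the same group. Ifne, which is made constitutively by epithelium of the female reproductive tract, had 0.932, 3.75, 1.93, 1.16 and 0.556 CPM at 22 months, against 0.405, 1.01, 0, 0.773 and 0 CPM at 6 months in dwarf ovaries. Ifne in normal ovaries had 0.296, 6.27, 1.00, 1.54 and 1.31 CPM at 22 months, against 0, 4.08, 0, 0 and 0 CPM at 6 months. Its 3 highest libraries were dwarf 22-month replicate 2 and replicate 2 of both normal groups, and it did not pass with age (log2 fold change 1.95 ± 1.26 in dwarf and 1.15 ± 1.25 in normal mice).

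The interferon receptor genes were expressed in every library. Ifnar1 lay between 80.2 and 134 CPM and Ifnar2 between 43.1 and 91.7 CPM over all 20 libraries, and neither passed in any comparison. Of 9 receptor and kinase genes, 1 fell in dwarf mice with age and 1 rose in normal mice, shares to be read beside the 8.27% called lower and 2.60% called higher among all genes. Ifngr2, a chain of the interferon gamma receptor, had 77.7, 71.1, 81.9, 72.7 and 77.4 CPM at 22 months, against 93.6, 92.4, 95.1, 105 and 118 CPM at 6 months in dwarf ovaries, with no overlap, as for 12.2% of all genes in that direction. Its log2 fold change was -0.49 ± 0.11 in dwarf mice (edgeR adjusted p = 0.00885) and -0.24 ± 0.11 in normal mice (adjusted p = 0.189). Ifngr1, the other chain, had -0.15 ± 0.13 and 0.36 ± 0.13 and passed in neither. The kinase gene Jak2 rose in normal mice by 1.33 ± 0.37 (edgeR adjusted p = 0.0359), with 29.1, 185, 73.2, 39.1 and 48.8 CPM at 22 months, against 24.5, 40.1, 24.2, 29.2 and 30.1 CPM at 6 months. Its highest value was in normal 22-month replicate 2.

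Of 7 other transcription factors of the pathway, 0 were called with age in dwarf mice and 1 in normal mice, Irf5, a factor of macrophages and B cells, at 1.71 ± 0.36 (edgeR adjusted p = 0.0112). The share of all genes called higher in normal mice was 2.60%. Irf1, induced by interferon gamma through its GAS, had 75.9, 199, 56.7, 76.4 and 63.2 CPM at 22 months, against 68.1, 78.1, 60.0, 171 and 58.9 CPM at 6 months in dwarf ovaries. Irf1 in normal ovaries had 68.4, 82.4, 129, 106 and 63.3 CPM at 22 months, against 71.7, 63.6, 46.9, 71.4 and 48.0 CPM at 6 months. Its 3 highest values of the 20 were those of dwarf 22-month replicate 2, dwarf 6-month replicate 4 and normal 22-month replicate 3, and it was not called with age, with fold changes of 0.04 ± 0.34 and 0.55 ± 0.34. Nlrc5, the activator of MHC class I genes, picked after its values were seen, had 108, 123 and 99.9 CPM in those 3 libraries, and 5.93 to 18.5, 5.18 to 10.8 and 8.09 to 46.1 CPM in the rest of their groups.

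Of 14 adaptors and receptors of nucleic acid sensing, 1 rose in dwarf mice and 2 rose and 1 fell in normal mice with age. Among all genes 2.92% were called higher in dwarf mice, and 2.60% higher and 4.14% lower in normal mice. The counts of this list and of those that follow are to be read beside these shares. Tlr3, the endosomal receptor for double-stranded RNA, rose in dwarf mice by 1.64 ± 0.46 (edgeR adjusted p = 0.0269), with 4.66, 10.6, 4.91, 4.48 and 7.04 CPM at 22 months, against 1.84, 1.96, 1.48, 3.59 and 0.859 CPM at 6 months. The groups did not overlap, as for 9.85% of all genes in that direction. Tmem173, which encodes STING, rose in normal mice by 1.57 ± 0.37 (edgeR adjusted p = 0.0182) and Tlr9, a receptor for unmethylated DNA, by 2.08 ± 0.61 (adjusted p = 0.0459), with Tlr9 at 46.0 CPM in normal 22-month replicate 3 and 3.80 to 6.36 in the other 4. Mb21d1, which encodes the DNA sensor cGAS upstream of STING, fell in normal mice by 1.49 ± 0.38 on the log2 scale (edgeR adjusted p = 0.0256). Of 6 tested negative regulators apart from Usp18, 0 passed in dwarf mice and 1 rose in normal mice, Socs3, at 0.66 ± 0.19 (edgeR adjusted p = 0.0382). Of 35 further interferon-induced genes tested, 0 were called in dwarf mice and 2 rose in normal mice, Trim30a at 2.08 ± 0.51 and Slfn8 at 1.93 ± 0.56 (edgeR adjusted p = 0.0208 and 0.0431). The fold change was above 0 for 32 of these 35 in dwarf mice and for 35 of 35 in normal mice, with medians of 0.66 and 1.01. Of the chemokine genes among them, picked after their values were seen, Cxcl10 had 37.0, 21.2 and 27.4 CPM in the same 3 libraries and at most 3.47 CPM in the other 17. Cxcl9, induced by interferon gamma, had 113 CPM in normal 22-month replicate 3, 5.24 and 2.25 CPM in the dwarf libraries and at most 3.66 CPM elsewhere.

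Genotype was not associated with a called difference in any of the 45 genes at either age. At 22 months 9 of 45 log2 fold changes of dwarf over normal were above 0 (7211 of 16099 over all genes), with a median of -0.40, beside -0.04 over all genes. The share of all genes called in either direction was 3.81% (614), and 5 of the 45 had an unadjusted p under 0.05 in edgeR. The smallest p-values were those of Oas2, Isg15 and Ifi27l2a, with fold changes of -1.79 ± 0.68, -1.36 ± 0.54 and -0.96 ± 0.40 (edgeR adjusted p = 0.160, 0.178 and 0.200). Oas2 had 7.46, 29.5, 11.3, 6.45 and 6.48 CPM in dwarf ovaries, against 12.9, 118, 28.8, 22.6 and 14.7 CPM in normal ovaries at 22 months. The groups overlapped only through dwarf replicate 2. At 6 months 20 of 45 were above 0 (7391 of 16099 over all genes), with a median of -0.17, beside -0.04 over all genes. Without normal 6-month replicate 2 the median of the 45 was 0.25. The share of all genes called in either direction was 4.57% (735), and 2 of the 45 had an unadjusted p under 0.05. The smallest p-values were those of Ifi27l2a and Oas2, with -1.10 ± 0.40 and -1.64 ± 0.69 (edgeR adjusted p = 0.135 and 0.201). Oas2 had 2.80, 6.71, 2.09, 9.91 and 1.52 CPM in dwarf ovaries, against 13.7, 29.2, 4.39, 7.49 and 12.8 CPM in normal ovaries at 6 months, and the groups overlapped.
The counts were 0 with DESeq2 at both ages and, with limma voom, 2 lower genes at 22 months (Epsti1 and Rsad2) and 0 at 6 months. With limma voom 1303 of all genes were called lower at 22 months. Without dwarf 22-month replicate 2 and dwarf 6-month replicate 4 the counts were 2 lower at 22 months (Irf7 and Zbp1), with a median of -0.86, and 1 lower at 6 months (Rtp4), with a median of -0.48. Without normal 6-month replicate 5, 1 gene was lower at 6 months (Ifi27l2a). Over all genes 369 to 1459 were called at 6 months, in either direction, without single libraries. The share of all genes without the 2 dwarf libraries is not given here.
Of 72 other genes of the pathway tested, 3 passed by genotype at 22 months and 2 at 6 months, shares near or below those of all genes given above. Irf8, a factor of macrophages and dendritic cells, was higher in dwarf ovaries at 6 months by 1.96 ± 0.32 (edgeR adjusted p = 0.00185), with 65.4, 89.8, 93.6, 102 and 104 CPM in dwarf ovaries, against 28.6, 22.1, 20.5, 27.5 and 16.3 CPM in normal ovaries. Il10rb, a receptor chain shared by interleukin 10 and interferon lambda, was lower in dwarf ovaries at 6 months at -0.94 ± 0.22 (edgeR adjusted p = 0.0167). At 22 months Socs3, Myd88 and Ikbke were lower in dwarf ovaries, at -0.89 ± 0.19, -1.08 ± 0.28 and -0.95 ± 0.26 (edgeR adjusted p = 0.0113, 0.0343 and 0.0459). Socs3 restrains JAK and STAT signalling, Myd88 is the adaptor of most Toll-like receptors, and Ikbke phosphorylates IRF factors.

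The age change was tested for a difference between the genotypes in the same fit. None of the 45 passed, and 0.00% of all genes did (0 of 16099). At an unadjusted p under 0.05, 0 of the 45 passed, and DESeq2 and limma voom also called 0 of them after adjustment. The log2 fold change with age was lower in dwarf than in normal mice for 38 of the 45, with a median difference over the 45 of -0.30. For Bst2, 1 of the 38, this means a larger fall in dwarf mice. Over all genes tested the median difference was 0.00, and the difference was above 0 for 8109 of 16099. Many of the 45 were highest in the same libraries, so the 38 are not independent. The differences of the called genes were 0.40 ± 0.77 for Ifit1, -1.07 ± 0.72 for Ifit3 and 0.02 ± 0.52 for Samd9l (edgeR adjusted p = 0.983, 0.861 and 0.999). Of the 10 roles, the MHC class I genes had the largest median difference, -1.25, with Tap1 at -1.55 ± 0.89 (adjusted p = 0.815, edgeR). Without dwarf 6-month replicate 4 the median difference over the 45 was 0.06, and without dwarf 22-month replicate 2 it was -0.71.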

How the data were processed

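Polyadenylated ovary RNA of female mice was sequenced in 20 libraries, and the authors deposited 1 table of raw read counts per gene for each library. Per the submitters' processing notes the tools named were Bowtie2, TopHat2 version 2.0.10, HTSeq, DESeq and edgeR, with the mm10 build, and the sources used here give no strand setting of the counting. The summary lines that name no gene, 9.84% to 17.6% of a library, were left out. Genes were kept by edgeR's expression filter (minimum count 10, minimum total 15), scaled by TMM, and fitted with edgeR 4.0.16 quasi-likelihood (R 4.3.3) with a mean for each of 4 groups over all 20 libraries. The contrasts were 22 over 6 months in each genotype, dwarf over normal at each age, and the difference of the 2 age changes, with Benjamini-Hochberg adjustment over 16099 genes. The SE of a log2 fold change was its size divided by the square root of its F statistic. DESeq2 1.42.0 and limma 3.58.1 (voom with a quality weight for each library) served as alternatives. Printed CPM are counts over the library total without TMM. On simulated counts the fit was tested with known changes. Totals of counts limit precision, since 1 count was 0.732 CPM in the shallowest library. Each library was taken as 1 mouse, so the p-values measure the spread between libraries. That was not checked, also not for dwarf 22-month replicates 1 and 4, which were alike. The 45 genes, their roles, the pathway and marker lists and the rule below were chosen with earlier results of these data known. In full were given, for each role, the gene with the highest mean CPM and that with the smallest p for age in each genotype (18 genes), and for the pathway lists a set of genes fixed by name, not all of which are reported here, and up to 3 called with the smallest p. Promoter sequence came from RefSeq GRCm38.p6, and 11 genes had no entry (Oas2, Mx1, Mx2, Ifi27l2a, Usp18, Iigp1, Rtp4, Dhx58, Zbp1, Parp9 and Parp14).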

Additional observations from a re-analysis of the deposited data

Results flagged for a closer look

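Within groups of 5 libraries, 88 sets of values were examined for a highest or lowest library whose gap to the nearest of the others exceeded Dixon's 95% critical value of 0.71 of the whole range on a log scale, and 16 did. Chance flags about 1 in 20 such sets, and the genes examined are not independent of each other. Igtp and Iigp1 were moreover added after their values were seen, so the 16 cannot be set against that rate. Dwarf 22-month replicate 2 was far above the other 4 libraries for 6 genes. It held 179 CPM of Stat2 (others 62.5 to 65.1), 61.1 of Irf7 (17.4 to 20.8), 207 of Oasl2 (65.7 to 80.1), 55.2 of Parp9 (22.2 to 25.6), 255 of Igtp (9.52 to 19.9) and 218 of Iigp1 (4.02 to 11.2). Its mean level over the 45 genes, on a log2 CPM scale, was 5.54, with the others at 3.85 to 4.03. Dwarf 6-month replicate 4 was far above its group for Stat2 at 137 CPM (51.9 to 58.8), B2m at 925 (208 to 291), Igtp at 166 (6.24 to 13.5) and Iigp1 at 59.8 (1.14 to 2.91). In normal mice, Iigp1 stood at 81.6 CPM in 22-month replicate 3 (4.19 to 9.83), Isg15 at 40.4 in 22-month replicate 2 (8.63 to 13.1) and Irf7 at 33.0 in 6-month replicate 2 (12.0 to 16.1), the library with oviduct markers. The shallow normal 6-month replicate 3 was far below its group for Stat2 at 34.4 CPM (61.2 to 72.9) and Ddx58 at 12.4 (26.9 to 35.0). Besides Igtp and Iigp1, Oas2 was examined outside the rule for genes given in full, and it was not flagged.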

How the results depend on the processing

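With 5 libraries a group and 1 shallow library, calls near the threshold moved with the settings; the cause was not tested. Of the 45 genes, those called with age in dwarf mice (3) numbered 7 with DESeq2, 19 with limma voom (18 higher and Bst2 lower), 9 when only the groups compared were fitted, 9 without the 3 normal libraries in doubt, 2 (Ifit1 and Samd9l) with the similar dwarf 22-month replicates 1 and 4 summed, 3 without the libraries with title numbers 21 to 23 (Dtx3l, Ifih1 and Samd9l, with neither IFIT gene) and 0 without dwarf 22-month replicate 2 and dwarf 6-month replicate 4 together, a setting added after seeing the data. Those called with age in normal mice (2) numbered 11 with DESeq2, 11 with voom, 1 with no count filter, 0 with only the groups compared (32 at an unadjusted p under 0.05), 14 without the 3 in doubt, 1 without title numbers 21 to 23, 1 with the summed pair, and 12 without the 2 dwarf libraries. By genotype the count at 22 months (0) became 2 with voom, 1 with only the groups compared (Epsti1) and 2 without the 2 dwarf libraries, and at 6 months (0) 1 without them. Leaving out 1 library at a time gave 0 to 12 in dwarf and 1 to 21 in normal mice for age, 0 to 0 at 22 months and 0 to 1 at 6 months for genotype, and 0 to 0 for the interaction. These counts of the 45 are to be read beside those of all genes, which moved with the settings too. The count of all genes called with age in dwarf mice without title numbers 21 to 23 is not given here. With limma voom 3563 of all genes were called higher with age in dwarf mice, and 2361 when only the groups compared were fitted. Over all genes, the age calls in dwarf mice (1802) became 2747 with DESeq2, 7519 with voom, 5169 with only the groups compared, 4697 without the 3 in doubt, 1107 with the summed pair, 519 without the 2 dwarf libraries and 802 to 1681 without single libraries. Those in normal mice (1086) became 1766, 3859, 0 and 4848 in the first 4 of these settings, 188 without title numbers 21 to 23, and 481 to 4384 without single libraries. At 22 months 614 genes became 1201 with DESeq2, 2291 with voom, 1762 without the 3 in doubt, 323 without title numbers 21 to 23, 272 with the summed pair and 262 to 637 without single libraries. At 6 months 735 became 1414, 1860, 244 and 1991 in the first 4 settings and 369 to 1459 without single libraries, and the interaction (0) 17 with DESeq2, 9 with voom, 202 without the 3 in doubt and 0 to 1 without single libraries. The mean log2 level of the 45 genes ran from 3.97 to 4.39 in dwarf mice at 22 months and 3.02 to 3.58 at 6 months, and from 4.50 to 4.81 in normal mice at 22 months and 3.42 to 3.65 at 6 months, without single libraries. Searched on 1 strand, the ISRE core was in 8 of 34 promoters (23.5%) instead of 16, and in 1143 of 27025 genes (4.23%) instead of 2211 (8.18%). Of 924 values of single genes under these settings, 824 kept their direction and side of the threshold, 60 newly passed, 38 no longer passed and 2 turned in direction, Stat2 with age in dwarf mice at -0.24 without dwarf 22-month replicate 2 and Bst2 with age in normal mice at 0.0206 without the 3 in doubt. The Stat2 value in dwarf mice ran from -0.24 to 0.61 without single libraries. Same-numbered libraries of different groups mostly did not deviate together (30 pairs, median Pearson's r -0.02, range -0.32 to 0.70, 9 over 0.1). Replicate 2 differed, with r above 0 in all its same-numbered pairs and 0.70 between dwarf and normal mice at 6 months. Of 20 libraries 8 were closest to their own number, so these values do not settle whether the numbers pair them. The main fit uses no pairing. With the replicate block the calls for age were 3 in dwarf mice (Ifit1, Ifit3 and Samd9l) and 3 in normal mice (Dhx58, Ifit3 and Irf7, without Samd9l), and 0 in the other comparisons.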
